A study of Mus musculus with 2 samples.

Results

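The 10 genes described here belong to the elastic fibre and its cross-linking enzymes, and were followed in a line of mouse mesenchymal stem cells that lacks Dicer (KO) and in a line with intact Dicer (WT). They are the 5 lysyl oxidase genes Lox, Loxl1, Loxl2, Loxl3 and Loxl4, the elastin gene Eln, the fibrillin gene Fbn1 and the fibulin genes Fbln1, Fbln2 and Fbln5. The members were taken by symbol from the authors' deposited comparison of both lines, which lists 23227 gene symbols, and all 10 were found. The KO line carries the genotype Dicer -/- and the WT line Dicer f/f, that is, floxed alleles that have not been removed. Both are immortalised monoclonal lines of adult mesenchymal stem cells, also called fibroblasts in the labels, grown in Alpha-MEM with 10% fetal bovine serum and lysed below confluence for polyA RNA. Each genotype is therefore 1 clone, and a difference of genotype and a difference between clones cannot be told apart.

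The deposited values are normalised reads, that is, reads per gene divided by a size factor for depth and averaged within a genotype. Each mean could be split into the whole reads of 2 libraries, called the deeper and the shallower library of a genotype after their totals. The KO libraries held 15718369 and 14969532 reads in genes and the WT libraries 15369250 and 14135422. The labels give 1 sample per genotype and do not say how these libraries relate, so the spread between them may be technical. "Rose" and "fell" are written of genes with an adjusted p under 0.1 in the authors' deposited table, which 3.91% of the 17303 genes with reads passed as higher in KO and 3.96% as lower. "At least 2-fold" means a ratio of KO over WT of at least 2 or at most 0.5 whose 95% exact (Clopper-Pearson) counting interval excludes 1, among the 11710 genes with an overall mean of at least 20 normalised reads. Of those, 8.92% were higher in KO by this rule and 8.56% lower. Intervals cover counting error only. Of the 10 members, 9 were over that minimum, all except Eln.

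Elastic fibres give skin, vessels and lung their recoil. Cells first lay down microfibrils, whose backbone is fibrillin-1, and these take up tropoelastin, the soluble product of Eln, with fibulins as adaptors. Lysyl oxidases are secreted copper enzymes that oxidise lysine side chains of tropoelastin and collagen, so that the chains become covalently cross-linked. Dicer is the enzyme that releases mature microRNAs from their precursors, and the miR-29 family is known to repress messages of matrix proteins, elastin, fibrillin-1 and collagens among them, in fibroblasts. The comparison addressed how messenger RNA levels differ without Dicer.

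The mature miR-29 sequences are shown because their seed matched more of the 10 genes than that of any of the 9 other families searched. Capitals mark the seed, bases 2 to 8, which is the same in the 3 sequences. They are from RefSeq on build GRCm38.p6, where miR-29a-3p lies on the minus strand at chr6:31062673-31062694 and miR-29c-3p on the plus strand at chr1:195037600-195037621. miR-29b-3p comes from both places, at chr6:31063025-31063047 on the minus and chr1:195037091-195037113 on the plus strand.
miR-29a-3p: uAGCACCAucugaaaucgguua
miR-29b-3p: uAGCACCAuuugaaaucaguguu
miR-29c-3p: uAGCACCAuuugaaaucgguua

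The 7 bases TGGTGCT, which pair with that seed, occurred 11 times in the longest annotated 3' UTRs of 5 members (GENCODE release M21, build GRCm38, sense strand). Lox and Eln held 3 each, Loxl2 and Fbn1 2 each and Loxl4 1. Loxl1, Loxl3, Fbln1, Fbln2 and Fbln5 held 0. Of all 11313 genes over the minimum with a 3' UTR, 16.2% held at least 1 match and 2.52% held 2 or more. A match is a run of letters and not a shown binding site. Matches with 11 bases on either side are printed for Fbn1, Loxl4, Loxl2 and Eln, with the match in capitals, counted from the first base after the stop codon.
Fbn1, bases 406 to 412: tgttgtctgttTGGTGCTagtaaattctc
Fbn1, bases 656 to 662: agggtttgtaaTGGTGCTtattaagacca
Loxl4, bases 307 to 313: ccccctctaagTGGTGCTttgcaaatgtc
Loxl2, bases 1629 to 1635: agctcatggaaTGGTGCTactggtgtcta
Loxl2, bases 1991 to 1997: agcattgtgaaTGGTGCTaatatagggtc
Eln, bases 38 to 44: ctcatcaacgtTGGTGCTactgcttggtg
Eln, bases 285 to 291: ccaagggaaatTGGTGCTacatgttggtg
Eln, bases 298 to 304: gtgctacatgtTGGTGCTtcttctttgtg

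The lysyl oxidases did not move as one family: Loxl1 and Loxl3 fell, Loxl4 rose, and Lox and Loxl2 did not pass. Over all 10 members, 2 rose, 4 fell and 4 did not pass in the authors' deposited table, where 7.88% of all genes with reads passed in either direction. At an adjusted p under 0.05 there, 5 members passed, and 6.26% of all genes. Among genes over the minimum, 5.56% rose and 5.34% fell. By the 2-fold rule 1 was higher and 5 were lower, where 17.5% of genes over the minimum were one or the other. For 2 members every KO library exceeded every WT library and for 5 the reverse held, where 30.4% and 28.8% of genes over the minimum did so, 59.3% in all. With limma, a linear model of log2 values fitted to the recovered libraries of all 11710 genes, 2 members were higher and 3 lower at an adjusted p under 0.05, which 4.61% and 4.14% of genes passed, 8.75% in all (29% at an unadjusted p under 0.05). With the depth rank of the libraries as a block in that model, a pairing read from the data and not given by the labels, 2 were higher and 5 lower, where 18.5% and 17.7% of genes were, 36.2% in all. With 1 KO library left out, the lone KO library is assumed to vary like the WT libraries, which leave 1 residual degree of freedom. limma then called 0 of the 11710 genes, so that its 0 calls among the members say nothing of their stability. At an unadjusted p under 0.05 were 6 members in each of these fits, and 19.5% and 26% of all genes without the deeper and the shallower KO library.

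Loxl1 encodes the lysyl oxidase that binds fibulin-5 and is needed to maintain elastic fibres in adult mice. It had 930 normalised reads in the deeper and 528 in the shallower KO library, against 7250 and 6095 in the WT libraries. Both KO libraries lay far below both WT libraries. The ratio of KO over WT was 0.109 with an interval from 0.104 to 0.115, and Loxl1 fell 9.15-fold (authors' deposited table, adjusted p = 6.78e-15).

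Loxl3, an enzyme that also acts on collagen and is needed for palate and spine in mice, had 479 and 443 normalised reads in the deeper and the shallower KO library, against 1135 and 1046 in the WT libraries. The libraries of a genotype lay within 1.08-fold of each other, and the genotypes did not overlap. Loxl3 fell 2.36-fold (authors' deposited table, adjusted p = 0.0156). Its annotated exons share 11.6% of their bases with Htra2 on the opposite strand. Whether the counting used strand is not given in the sources used here, so reads of both genes could be mixed, and Htra2 averaged 751 normalised reads in KO and 1075 in WT.

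Loxl4, the member of the family that went the other way, had 4374 and 5248 normalised reads in the deeper and the shallower KO library, against 1564 and 1758 in the WT libraries. Every KO library was above every WT library. The ratio was 2.90 with an interval from 2.78 to 3.01, and Loxl4 rose (authors' deposited table, adjusted p = 5.51e-04). Its 3' UTR holds 1 of the matches printed above.

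Loxl2, which cross-links collagen IV and also works inside the nucleus, was at 774 and 1699 normalised reads in the deeper and the shallower KO library, against 1721 and 8058 in the WT libraries. The shallower KO library came within reach of the deeper WT library, and the WT libraries were 4.68-fold apart. The mean was 3.95-fold lower in KO, but Loxl2 did not pass (authors' deposited table, adjusted p = 0.804). The ratio of 0.253 became 0.719 with the shallower WT library left out, 0.153 with the deeper WT library left out and 0.158 with the shallower KO library left out. Loxl2 passed with limma only once the depth rank of the libraries was taken as a block (adjusted p = 0.00860, against 0.249 without the block). That pairing was read from the data, and 36.2% of all genes over the minimum passed with it.

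Lox, the founding lysyl oxidase, was the most abundant of the 10 per kilobase in both lines. It had 14853 and 19572 normalised reads in the deeper and the shallower KO library, against 15459 and 26745 in the WT libraries, so the genotypes overlapped. The ratio of 0.816 did not pass (authors' deposited table, adjusted p = 1), and it was 1.11 without the shallower WT library. Lox carries 3 miR-29 matches, at bases 472, 1347 and 2712 of its 3' UTR.

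**Figure D1:**
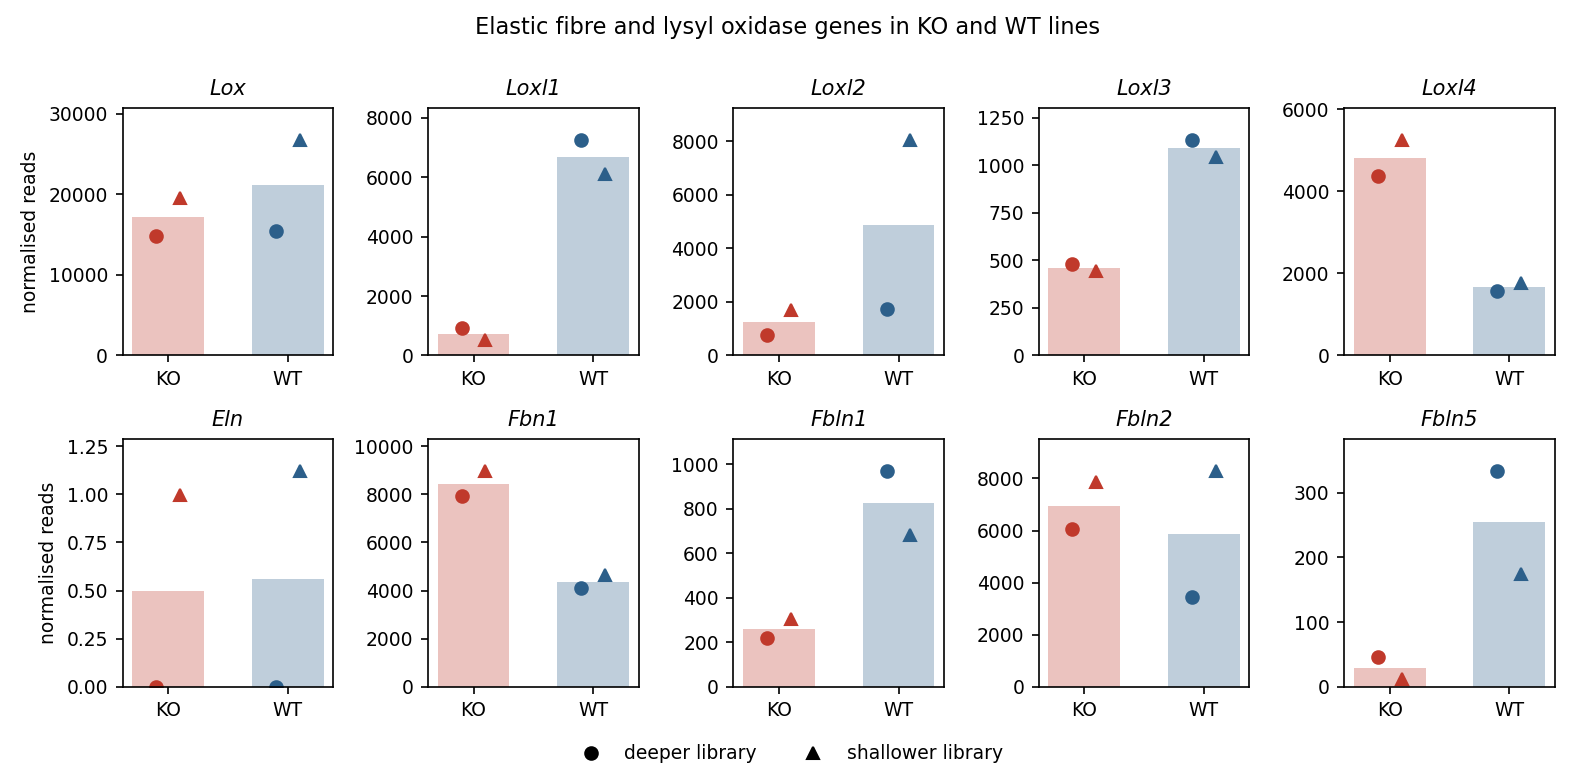
Normalised reads of the 10 members in KO (red, left) and WT (blue, right), with a linear axis per gene that starts at 0. Bars are the authors' means, circles the deeper and triangles the shallower recovered library; KO lies below WT for Loxl1, Loxl2, Loxl3, Fbln1 and Fbln5, above WT for Loxl4 and Fbn1, and the points overlap for Lox, Fbln2 and Eln, which has at most 1 read in a library.

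Levels of the members were compared with each other only per kilobase of the longest annotated transcript, which is not the authors' annotation. On that scale Lox made up 64.6% and 67.5% of the lysyl oxidase reads per kilobase in the deeper and the shallower KO library, against 50.3% and 58.0% in the WT libraries. Loxl1 held 5.82% and 2.62% in the KO libraries against 33.9% and 19.0% in the WT libraries, where it came next after Lox. In KO, Loxl4 came next after Lox, with 24.1% and 22.9% in the KO libraries against 6.46% and 4.83% in the WT libraries. Per kilobase, the ratio of Loxl4 to Loxl1 was 4.15 and 8.76 in the KO libraries and 0.190 and 0.254 in the WT libraries. Together, Loxl1 to Loxl4 had 1715 and 1992 normalised reads per kilobase in the KO libraries and 3218 and 4090 in the WT libraries. These sums did not overlap, as was so with KO lower for 28.8% of single genes over the minimum. Loxl2, which did not pass, gave 324 of the sum in the deeper and 1516 in the shallower WT library. Loxl4 rose, so the sum does not describe each gene. The percentages of the lysyl oxidases add up to 100%, so that of Lox moves with those of the others.

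**Figure D2:**
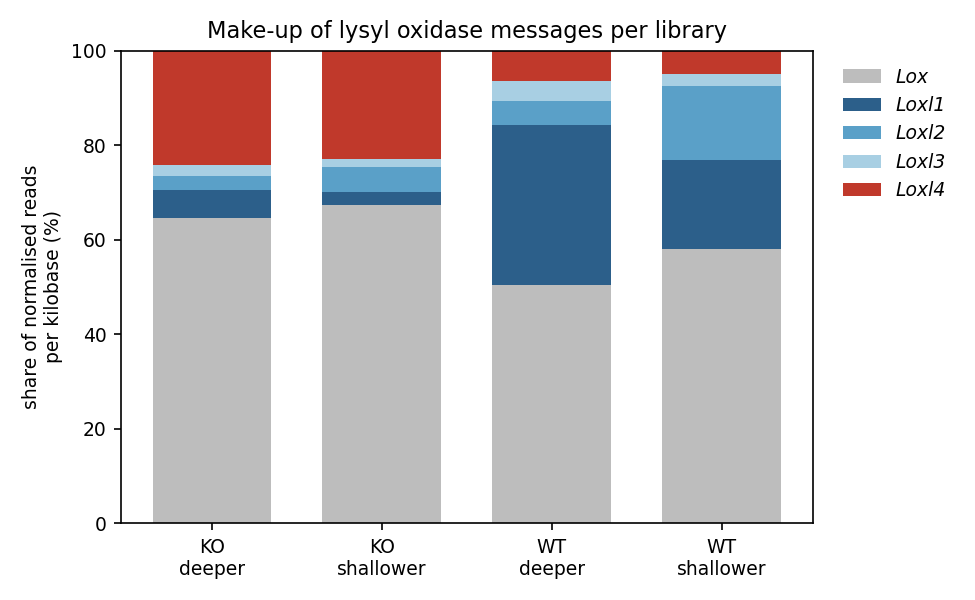
Share of each lysyl oxidase in the summed normalised reads per kilobase of the 5 genes, in percent, for the KO libraries (left) and the WT libraries (right). Loxl4 (red) holds 22.9% to 24.1% in KO and 4.83% to 6.46% in WT, and Loxl1 (dark blue) 2.62% to 5.82% in KO and 19.0% to 33.9% in WT.

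Elastin itself was at the limit of detection in both lines. Eln had 0 reads in the deeper and 1 read in the shallower KO library, and 0 and 1 in the WT libraries. A count of 0 allows up to 3 reads, equal to 2.76 normalised reads in the deeper KO library and 2.89 in the deeper WT library. No ratio is given, and a difference was not detectable at this depth. The 3 miR-29 matches of Eln thus stand in a message with at most 1 read in any library.

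Fbn1, the gene of fibrillin-1, rose in KO. It had 7937 and 8970 normalised reads in the deeper and the shallower KO library, against 4102 and 4644 in the WT libraries. The groups did not overlap and the libraries of each genotype lay within 1.13-fold. The ratio was 1.93 with an interval from 1.88 to 1.98, just under the 2-fold rule, and it passed (authors' deposited table, adjusted p = 0.0811). Gm9913, an annotated gene on the opposite strand that is not among the symbols of the table, shares 20.1% of the exon bases of Fbn1. Fbn1 was 1.94-fold higher in the deeper KO library than in the deeper WT library and 1.93-fold higher in the shallower pair.

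Of the 3 fibulins, Fbln1 and Fbln5 fell and Fbln2 did not pass. Fibulin-5 tethers tropoelastin and Loxl1 to microfibrils and to integrins, and mice without it have loose skin and tortuous vessels. Fbln5 was at 46.0 and 11.9 normalised reads in the deeper and the shallower KO library, against 334 and 175 in the WT libraries. All KO values lay below all WT values. Fbln5 fell 8.78-fold (authors' deposited table, adjusted p = 0.0151), with a ratio of 0.114 that became 0.0470 when the deeper and 0.181 when the shallower KO library was left out. With limma on the recovered libraries its adjusted p was 0.0624, over the 0.05 used there, and 0.00264 with the depth rank as a block. The block was read from the data, and 36.2% of all genes over the minimum passed with it.

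Fbln1, whose product binds fibronectin and lies in the core of elastic fibres, had 218 and 304 normalised reads in the deeper and the shallower KO library, against 970 and 683 in the WT libraries. The groups did not overlap. Fbln1 fell 3.16-fold (authors' deposited table, adjusted p = 0.00140), 4.45-fold between the deeper libraries and 2.24-fold between the shallower ones.

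Fbln2, a fibulin of vessel walls and developing heart valves that binds fibrillin-1, had 6061 and 7855 normalised reads in the deeper and the shallower KO library, against 3452 and 8283 in the WT libraries. The KO values lay between the WT values. The ratio of 1.19 did not pass (authors' deposited table, adjusted p = 1) and was 0.840 without the deeper and 2.02 without the shallower WT library.

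**Figure D3:**
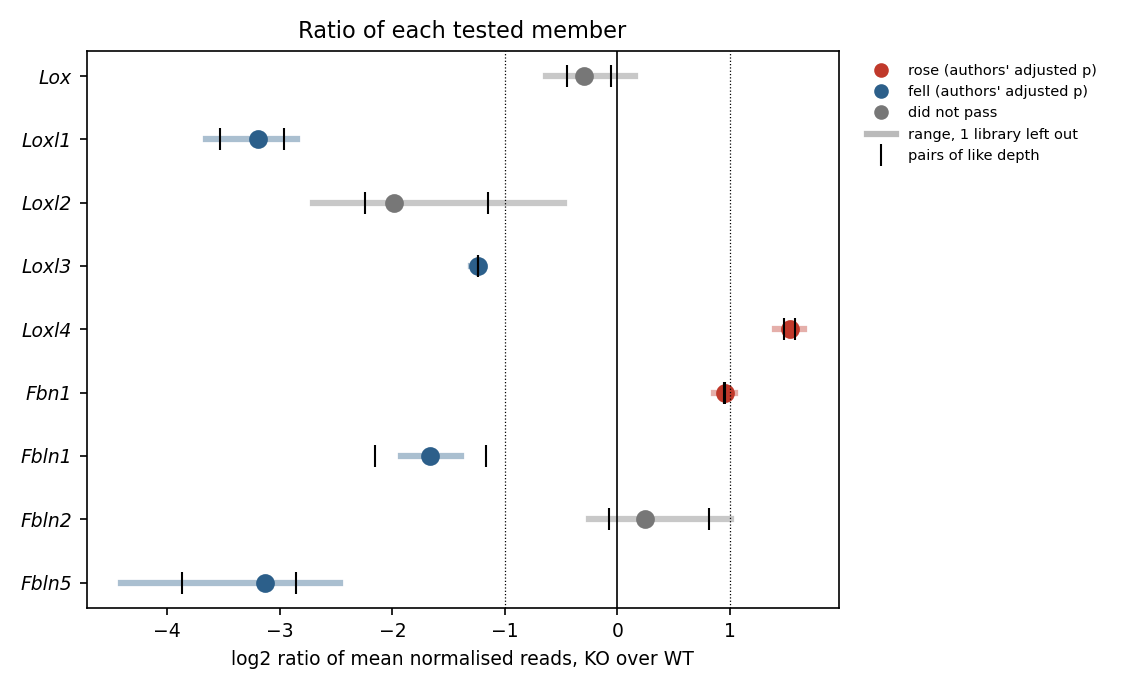
Log2 ratio of mean normalised reads, KO over WT, for the 9 members over 20 normalised reads. Dots are the ratios of the authors' means, thick bars the range with 1 library left out, ticks the pairs of like depth and dotted lines 2-fold; the bars of Lox and Fbln2 cross 0 and that of Loxl2 reaches -0.48.

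In KO, the order of levels per kilobase ran Lox, Fbln2, Loxl4, Fbn1, Loxl2, Loxl1, Loxl3, Fbln1, Fbln5 and Eln. Fbln2 and Loxl4 overlapped over the KO libraries, as did Loxl2 and Loxl1. In WT the order ran Lox, Loxl1, Fbln2, Loxl2, Loxl4, Fbn1, Loxl3, Fbln1, Fbln5 and Eln. Loxl2 overlapped Fbln2, Loxl4 and Fbn1 over the WT libraries, and Loxl3 overlapped Fbln1. Loxl1 stood at place 6 in KO, with 221 normalised reads per kilobase, and at place 2 in WT, with 2024. Loxl4 stood at place 3 in KO, with 1287, and at place 5 in WT, with 444.

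Set side by side with the seed matches, Loxl4 and Fbn1, which rose, hold 1 and 2 miR-29 matches, and Loxl1, Loxl3, Fbln1 and Fbln5, which fell, hold 0. Lox and Loxl2, with 3 and 2 matches, did not pass and had ratios of 0.816 and 0.253. Fbln2, with 0, did not pass either. Over all genes above the minimum, 6.49% of the 1835 genes with a match rose and 5.18% fell, against 5.52% and 5.23% of the 9478 genes without one. Of the 285 genes with 2 or more matches, the class of Fbn1, Loxl2 and Lox, 10.2% rose and 6.32% fell. Among the partner genes described below, taken without the minimum, 21 hold a match, of which 2 rose and 5 fell. The 53 partner genes without a match hold 6 that rose and 4 that fell. Over the minimum were 17 of the 21 and 38 of the 53. Of all genes with reads, 3.91% rose and 3.96% fell, and the partner genes were chosen with earlier results known. The part of miR-29 in these differences was not tested, and the level of mature miR-29 is not measured by polyA RNA.

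**Figure D4:**
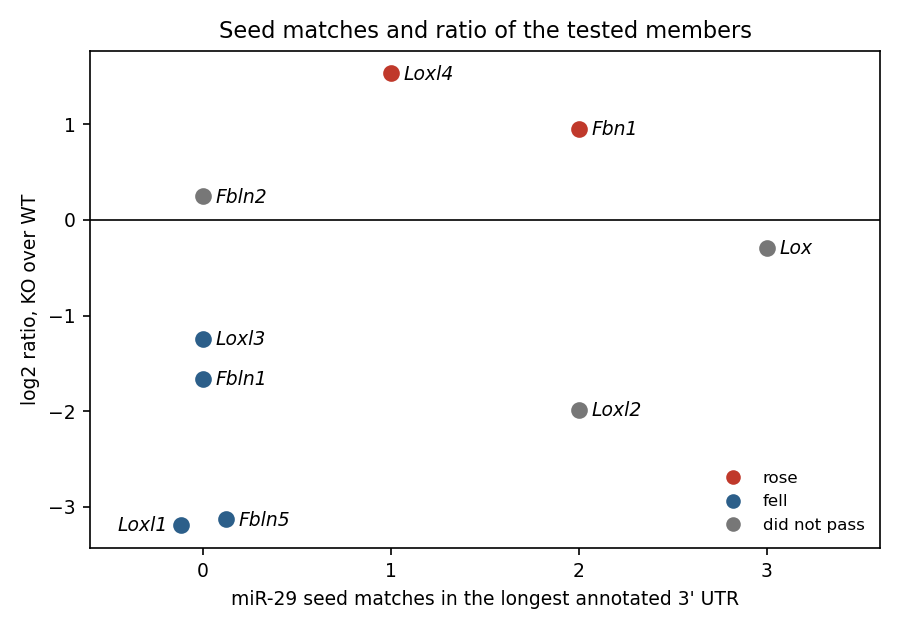
Number of miR-29 seed matches in the longest annotated 3' UTR (x axis) and log2 ratio, KO over WT (y axis), of the 9 members over the minimum. Loxl4 and Fbn1 (red, rose) stand at 1 and 2 matches, and the 4 genes that fell (blue) at 0; Loxl1 and Fbln5 are drawn slightly apart so that both can be seen.

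The other 9 families gave 13 matches in the members, of which 6 were in Lox. Sites of miR-30 (TGTTTAC, in 16.7% of genes) occurred once each in Lox, Fbln1 and Fbln5, and sites of miR-26 (TACTTGA, 11.8%) once each in Lox and Loxl2. Sites of miR-27 (ACTGTGA, 17.7%) occurred once each in Lox and Loxl4, and sites of miR-15/16 (TGCTGCT, 25.4%) once each in Loxl2 and Fbln5. The let-7 site (CTACCTC, 10.7%) occurred once, in Fbln5, the miR-199a-3p site (ACTACTG, 8.91%) once, in Lox, and the miR-218 site (AAGCACA, 15.7%) in Lox at 2 places. Sites of miR-17 (GCACTTT, 15.1%) and miR-21 (ATAAGCT, 8.03%) occurred in 0 members.

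Partners of the 10 genes were read in 6 lists, with 74 genes in the table, of which 8 rose and 9 fell (authors' deposited table). Of all genes with reads, 3.91% rose and 3.96% fell. Of all genes over the minimum, 5.56% rose and 5.34% fell, and their median log2 ratio was -0.01. Counts and medians of each list below are to be read beside these values, and in a list of 9 to 20 genes 1 call is already a large share. Of the 55 over the minimum, 16 passed, where 10.9% of all genes over the minimum did, and 12 of the 16 also passed with limma. The lists were chosen with earlier results of these data known, and limma used the same libraries, so these shares are described and were not tested.

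Among 20 microfibril and elastogenesis partners, 2 rose, 3 fell and 15 did not pass. The median log2 ratio of the 13 over the minimum was -0.26, against -0.01 over all genes tested. Efemp2, the gene of fibulin-4, which brings lysyl oxidase to tropoelastin, had 1800 and 1770 normalised reads in the deeper and the shallower KO library, against 6267 and 4760 in the WT libraries. It fell to a ratio of 0.324 (authors' deposited table, adjusted p = 1.59e-04). Ltbp2, which binds fibrillin-1 and fibulin-5, fell to 129 normalised reads in KO, against 1542 in WT, a ratio of 0.0837 (authors' deposited table, adjusted p = 0.0531) that was 0.139 without the shallower WT library. Bgn, the small proteoglycan biglycan, fell to 3653 in KO, against 16172 in WT (authors' deposited table, adjusted p = 2.21e-07).

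Vcan, the large proteoglycan versican, which binds fibrillin-1, rose to 7963 normalised reads in KO, against 2751 in WT (authors' deposited table, adjusted p = 0.0792), with a ratio of 2.89 that became 5.69 when the deeper and 1.94 when the shallower WT library was left out. Fbln7, a fibulin known from teeth and cartilage, rose to 226 in KO, against 65.3 in WT (authors' deposited table, adjusted p = 0.00461). Its ratio of 3.46 was 7.46 without the deeper and 2.25 without the shallower WT library, and both Vcan and Fbln7 missed the limma threshold (adjusted p = 0.127 and 0.114). Fbn2, the fibrillin of development, had the lowest ratio of the list, with 6.44 and 0 normalised reads in the KO libraries against 151 and 13.5 in the WT libraries, and did not pass (authors' deposited table, adjusted p = 0.613). Its ratio of 0.0391 became 0.239 with the deeper WT library left out and 0.0781 with the shallower KO library left out. The microfibril genes Mfap2, Mfap4 and Mfap5 had at most 1.12 normalised reads in any library.

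Of 12 genes of lysyl oxidase maturation and copper supply, 1 rose, 1 fell and 10 did not pass, with a median of -0.39 over the 10 above the minimum. Bmp1, the protease that frees lysyl oxidase from its propeptide, fell to 1287 normalised reads in KO, against 2729 in WT (authors' deposited table, adjusted p = 0.0361). Atp7a, the pump that loads copper into secreted enzymes, rose to 782 in KO, against 330 in WT (authors' deposited table, adjusted p = 0.0207). Postn, the gene of periostin, which holds Bmp1 near fibronectin, was at 481 and 140 in the KO libraries, against 3832 and 13143 in the WT libraries, and did not pass (authors' deposited table, adjusted p = 0.145). With limma it did pass (adjusted p = 0.0382). Its ratio of 0.0366 became 0.0165 and 0.0567 with the deeper or the shallower KO library left out, and 0.0236 and 0.0811 with the deeper or the shallower WT library left out.

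Of 9 genes of collagen lysine hydroxylation and its chaperones, 1 rose, 1 fell and 7 did not pass, with a median of -0.07. Fkbp10, an endoplasmic reticulum chaperone of collagen and tropoelastin, fell to 2476 normalised reads in KO, against 5296 in WT (authors' deposited table, adjusted p = 0.0305). Leprel1, a prolyl 3-hydroxylase gene, rose to 1809 in KO, against 765 in WT (authors' deposited table, adjusted p = 0.0129).

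Of 9 genes of ADAMTS and ADAMTSL proteins that bind fibrillin or belong to the same family, 0 rose, 2 fell and 7 did not pass, with a median of 0.07 over the 6 above the minimum. Thsd4, which encodes a fibrillin-1 binding protein of microfibrils, had 96.6 and 20.9 normalised reads in the deeper and the shallower KO library, against 625 and 408 in the WT libraries. It fell to a ratio of 0.114 (authors' deposited table, adjusted p = 4.89e-05), which became 0.0405 when the deeper and 0.187 when the shallower KO library was left out. Adamts10, a protease of microfibrils, fell to 217 in KO, against 480 in WT (authors' deposited table, adjusted p = 0.0529), and without the shallower KO or the deeper WT library it was less than 2-fold lower, at 0.529 and 0.550. Both missed the limma threshold (adjusted p = 0.0618 for Thsd4 and 0.0854 for Adamts10). Adamtsl3, of the same family, had the highest ratio of the list, 3.55, and did not pass (authors' deposited table, adjusted p = 0.243). That ratio was 2.34 without the deeper KO library.

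Of 13 elastin-degrading enzymes and their inhibitors, 2 rose, 2 fell and 9 did not pass, with a median of -0.32 over the 8 above the minimum. The gelatinase gene Mmp2 fell to 190.5 normalised reads in KO, against 819 in WT (authors' deposited table, adjusted p = 5.18e-06), and the cathepsin K gene Ctsk to 12.3 in KO, against 73.1 in WT (authors' deposited table, adjusted p = 0.00567). The ratio of Ctsk was 0.168, and 0.109 without the deeper KO library. The cathepsin L gene Ctsl rose to 8584 in KO, against 3683 in WT (authors' deposited table, adjusted p = 0.00988). The other gelatinase gene, Mmp9, rose to 34.2 in KO, against 3.05 in WT (authors' deposited table, adjusted p = 0.0206), from 6 reads over both WT libraries. The macrophage elastase gene Mmp12 had at most 1.99 normalised reads in a library.

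Of 11 genes of the elastin receptor complex and of integrins that bind fibrillin or fibulin, 2 rose, 0 fell and 9 did not pass, with a median of 0.63 over the 9 above the minimum. Itgb3, the beta chain that pairs with alpha-v, had 513 and 307 normalised reads in the deeper and the shallower KO library, against 24.1 and 28.0 in the WT libraries. It rose 15.7-fold (authors' deposited table, adjusted p = 2.61e-05). Lgals3, the gene of the elastin-binding lectin galectin-3, rose to 4151 in KO, against 1344 in WT (authors' deposited table, adjusted p = 2.85e-04). Itgb1 had the lowest ratio, 0.851, and did not pass (authors' deposited table, adjusted p = 1). Its libraries overlapped, and the ratio became 1.07 when the shallower WT library was left out.

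**Figure D5:**
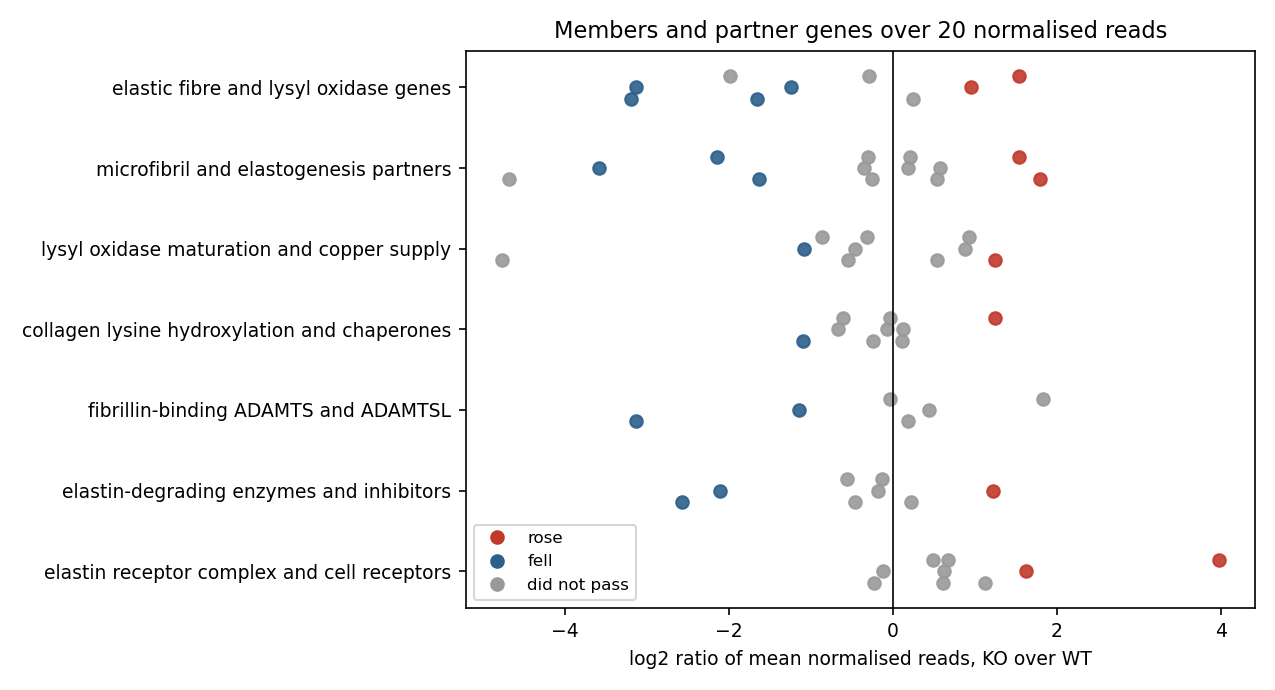
Log2 ratio of mean normalised reads, KO over WT, for the 9 members and the 55 partner genes over 20 normalised reads, 1 row per list (points are offset up and down so that they can be told apart). Red points rose, blue points fell and grey points did not pass in the authors' deposited table; each list holds points on both sides of 0.

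Of the 12 markers of mesenchymal stem cells and fibroblasts, 11 were over the minimum, and Thy1 had no read in either line. The list summed to between 107251 and 132083 normalised reads in KO and between 176455 and 215938 in WT. Like the other marker sums below, these are not divided by transcript length. Of its genes, 1 rose and 2 fell (authors' deposited table), where 3.91% and 3.96% of all genes with reads did. Those that fell were the collagen I genes Col1a1, at a ratio of 0.432, and Col1a2, at 0.486, and Vcam1 rose, at 2.81. Col1a1 and Col1a2 missed the limma threshold (adjusted p = 0.0685 and 0.128), and Vcam1 passed it (adjusted p = 0.0472). Summed markers of other cell types were low: 31.8 to 32.2 normalised reads in KO and 45.3 to 50.4 in WT for 7 haematopoietic markers, 25.8 to 26.9 in KO and 14.6 to 19.3 in WT for 6 endothelial markers, and 3.68 to 8.96 in KO and 4.82 to 10.1 in WT for 5 epithelial markers. The 7 markers of smooth muscle, a cell type that builds elastic fibres in vessels, did not move as one. They summed to between 1860 and 2016 normalised reads in KO and between 37324 and 63969 in WT, of which Acta2 alone gave 31371 and 51277. Of the 7, 4 fell (authors' deposited table), where 3.96% of all genes with reads did. Smtn and Des did not pass, at ratios of 0.781 and 1.39. The defining smooth muscle marker Myh11 had at most 7.36 normalised reads in a library. Adipocyte markers summed to 2248 to 4019 in KO and 6477 to 19704 in WT. Most of that was Lpl, with 3093 and 1575 in the deeper and the shallower KO library and 16197 and 3551 in the WT libraries. Lpl did not pass, at a ratio of 0.236, nor did Pparg, at 0.635, and Adipoq and Plin1 were below the minimum. Of the 5 adipocyte markers, only Fabp4 passed, where 3.96% of all genes with reads fell. Fabp4 fell to 2.41 in KO, against 1936 in WT (authors' deposited table, adjusted p = 6.11e-55). Chondrocyte markers summed to 908 to 1802 in KO and 752 to 1643 in WT, but moved in opposite directions. Sox9 rose, at a ratio of 4.67 (authors' deposited table, adjusted p = 0.0712), and missed the limma threshold (adjusted p = 0.0995). Acan fell, from 20 and 16 reads in WT to 0 in KO (authors' deposited table, adjusted p = 0.0145). Col2a1, at a ratio of 0.249, did not pass. Mesothelial markers summed to 196 to 462 in KO and 14.5 to 66.1 in WT, of which Msln alone had 164 and 408 in the KO libraries against 0.964 and 0 in the WT libraries. Of these 7, only Msln rose (authors' deposited table, adjusted p = 2.88e-04), where 3.91% of all genes with reads did. Krt8 did not pass, at a ratio of 1.30 with overlapping libraries, and Krt18, below the minimum, was at 0.543. Upk3b and Upk1b had no read, and Wt1 and Lrrn4 had at most 1.99 normalised reads in a library. The part of these differences in the values of the members was not tested, and in bulk RNA fewer cells of a type and less RNA per cell cannot be told apart. Dicer1, the deleted gene, had 573 and 557 normalised reads in the KO libraries, against 804 and 943 in the WT libraries, and did not pass (authors' deposited table, adjusted p = 0.497). The table gives no value per exon, so the deletion itself was not checked.

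The deeper and the shallower library differed in the same direction in both genotypes for 8 of the 9 tested members, all except Fbln1, and for 73.7% of all tested genes. Lox, Loxl2, Loxl4, Fbn1 and Fbln2 were lower in the deeper library of each genotype, and Loxl1, Loxl3 and Fbln5 higher. In log2 of normalised reads plus 1, the deeper minus the shallower library gave -1.13 in KO and -2.23 in WT for Loxl2, -0.37 in KO and -1.26 in WT for Fbln2, and 1.86 in KO and 0.93 in WT for Fbln5. Compared in pairs of like depth, Loxl2 was 2.22-fold lower in the deeper KO than in the deeper WT library and 4.74-fold lower in the shallower pair, and Fbln5 was 7.25-fold and 14.6-fold lower. Loxl1 was 7.80-fold and 11.5-fold lower, while Loxl3, Loxl4 and Fbn1 had nearly equal ratios in both pairs (0.422 and 0.423, 2.80 and 2.99, 1.94 and 1.93).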

How the data were processed

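PolyA RNA of 1 KO and 1 WT sample was compared through 1 table of 23227 symbols. Of the authors' tools and build, TopHat 1.4.0, DESeq 1.10.1 and mm9 are listed in the submitters' processing notes, with no role or order, and no source used here gives the read counter or the annotation. The deposited columns are, per the file headers, a comparison of condition A with condition B, taken as WT and KO from the order in its name, on which every direction rests. For each gene the deposited signal is a mean of reads divided by size factors, beside which the authors gave the ratio of both means (a fold) and its log2 value. The p-values and adjusted p-values are the authors' and were copied from the deposited table.

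For 100% of the 16350 genes above 0 in KO and the 16386 in WT, exactly 1 pair of whole read numbers (relative tolerance 2e-14) gave the deposited mean of 2 libraries. Size factors recomputed from these reads matched the steps. limma 3.58.1 (R 4.3.3) was fitted with a mean-variance trend to log2(normalised reads + 1) of 11710 genes, with Benjamini-Hochberg adjustment at 0.05. It called 540 genes higher and 485 lower. The code was tried on simulated counts of independent libraries with 1 fixed scatter, which does not give its error rate on these data. Here the libraries of a genotype were at least 2-fold apart for 8.63% of genes in KO and 9.00% in WT. Libraries of 1 genotype correlated with r = 0.967 in KO and 0.958 in WT across genes, which are not independent replicates, and differed by more than counting noise. Symbols of 22773 genes (98.0%) matched GENCODE M21, used for sequences and lengths alone.

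The members, lists and tests were chosen with earlier results of these data known. The text names all 10 members and, of the partner lists, each gene past the authors' threshold and the highest and lowest ratio over the minimum; genes at the limit of detection and marker genes were named after their values were seen. The planned searches for miR-143 and miR-145 were not run.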

Additional observations from a re-analysis of the deposited data

How the results depend on the processing

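The 10 genes gave 6 calls in the authors' deposited table, 5 at an adjusted p under 0.05 there (6.26% of all genes), 5 with limma (also under both other scalings) and, with limma and the depth rank of the libraries as a replicate block, 7 (where 18.5% of genes were higher, 17.7% lower and 36.2% either), a pairing read from the data (r = 0.571 between the deeper-minus-shallower differences of both genotypes, across genes) and not from the labels. Loxl2 passed with that block alone (limma adjusted p = 0.00860, against 0.249 without it). With limma and 1 library left out, 1 residual degree of freedom remained and between 0 and 3 of the 10 passed: 2 without the deeper and 3 without the shallower WT library, where 6.14% and 4.88% of 11710 genes passed, and 0 without either KO library, where 0 genes did. At an unadjusted p under 0.05 those KO fits had 6 of the 10, and 2284 and 3050 genes.

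The 2-fold rule gave between 6 and 7 members with a library left out. Log2 ratios that changed direction or call were those of Lox (-0.29; -0.64 to 0.16 with a library left out), Loxl2 (-1.98; -2.70 to -0.48), Fbn1 (0.95; 0.86 to 1.04, and 1.01 with scaling to reads in genes) and Fbln2 (0.25; -0.25 to 1.01, and -0.076 in the shallower pair). The cause was not tested. The other tested members kept their direction and their 2-fold call under the alternatives run. In the partner lists 20 of the 55 genes over the minimum were at least 2-fold apart, where 17.5% of all genes over the minimum were. With a library left out there were 18 to 23, an alternative chosen after seeing the data, for which no share of all genes was taken. The planned edgeR and DESeq2 fits were not run.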
